A study of Rattus norvegicus with 4 samples.

Results

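The genes described here are the abundant protein-coding genes whose level differed least between 4 rats. A gene was taken where its annotated type was protein-coding, the mean of its deposited log2 values was at least 6 and the SD of those values over the 4 animals was at most 0.05; names beginning Slc, Rpl or Rps were left out. This rule gave 184 genes of the 3435 coding genes that passed the same limits on name and mean, or 5.36%, out of 13261 genes used in all. Glomeruli, the filtering tufts of the kidney, had been isolated by sieving from male Wistar rats of a single group labelled ADR, given Adriamycin (doxorubicin) by intravenous injection, and polyadenylated RNA was sequenced from each animal. No allele or transgene is named, the labels give a body weight but no age, and the protocol gives more than a single harvest day without tying a day to these samples. All 4 animals carried the treatment, so evenness here means evenness between treated animals, and no value says whether a gene's level differs from that of an untreated rat. Each library carries its own name, but the labels do not say how animals and preparations were divided among them, so the tests measure only the spread between these samples, which may be technical in part.

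The values are log2 read abundance (CPM, the reads of a gene scaled to the same total of reads over all listed genes in each sample). The libraries held between 13566962 and 16207027 assigned reads, and transcripts of the mitochondrial genome took from 7.46% to 12.5% of them, with the highest share in replicate 2. The labelled tissue was checked against defining genes: the slit diaphragm gene Nphs1 and the podocyte coat gene Podxl had means of 10.40 and 11.20 log2 CPM, and the proximal tubule genes Lrp2 and Slc34a1 were also high, at 10.22 and 10.58. None of the 46 genes with a mean of at least 6 in the 6 cell-type marker lists had an SD of at most 0.05; with 5.36% of coding genes even at that level, a count of 0 among so few says little. The median SD was 0.40 log2 units in the podocyte list, 0.49 in the proximal tubule list, 0.32 in the mesangial and in the immune list, 0.21 in the endothelial list and 0.13 in the distal nephron list. In such bulk samples fewer cells of a type and less RNA per cell cannot be told apart.

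Genes of steady level are often called housekeeping genes. Cells of every type need proteasomes to degrade proteins, translation factors and tRNA synthetases to make them, vesicle coats to move them and an actin skeleton to hold their shape, and the transcripts for this machinery are made in nearly all cells. Many such genes start from promoters rich in CpG dinucleotides. A few are used as reference genes, against which other transcripts are normalised, on the premise that their own level does not move. Adriamycin intercalates into DNA and poisons topoisomerase, and in rats it injures podocytes, the epithelial cells that cover the glomerular capillaries.

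The selection was by SD, so the spread of these genes is a description and carries no test. Their median SD was 0.037 log2 units, with a range from 0.011 to 0.050, beside a median of 0.15 (quartiles 0.093 and 0.23) for all coding genes with a mean of at least 6. The highest animal exceeded the lowest by a median ratio of 1.06 and by at most 1.09, beside a median ratio of 1.25 for the wider group. Both sets sat at a like level, with medians of 6.77 log2 CPM for the even genes and 6.84 for the wider group. Together the 184 genes took 2.74% ± 0.01 of the reads (SD, n = 4). The genes just inside the limit were Mapk14, Syncrip, Dnaja2 and Vezf1, at SDs from 0.0492 to 0.0499, and those just outside were Ctbp1, Pdcd11, Wnk1 and Adcy6, at up to 0.0503, so the limit runs through a continuous range.

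**Figure D1:**
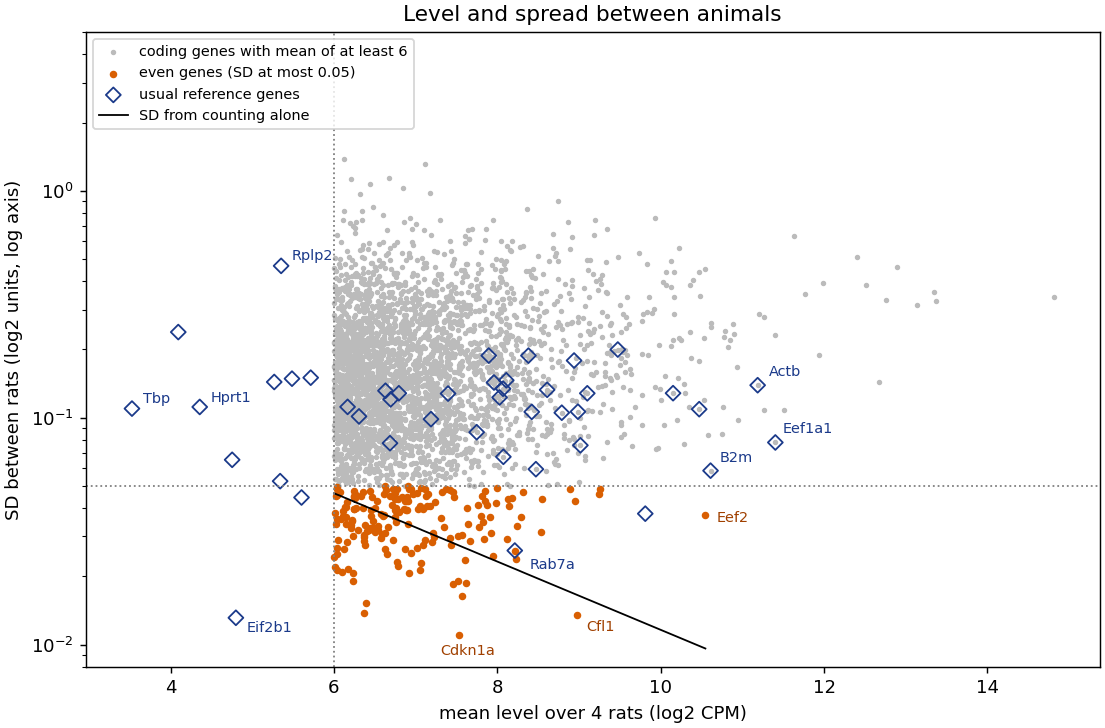
Mean level over 4 rats (x axis, log2 CPM) against the SD between them (y axis, log2 units on a log axis) for 3435 coding genes with a mean of at least 6 (grey), the 184 even genes (orange) and 43 usual reference genes (blue diamonds). The line is the SD that counting reads would give by itself; 84 of the even genes lie under it, and Rab7a is the only diamond that is also an even gene.

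Much of this range lies where counting reads sets the floor. The even genes had a median of 1643 reads per library (from 966 to 22611 on average), and Poisson counting of that many reads would by itself give a median SD of 0.036. Of the 184 genes, 84 (45.7%) had an SD below their own counting SD, beside 84 (2.45%) of all 3435 coding genes with a mean of at least 6. The other 100 even genes lay above it, 29 of them by more than 1.5 times. These counts follow from the selection by SD and are a description only. Reads from amplified libraries without molecular identifiers are not independent molecules, and this floor covers counting error only. In the test of each gene's reads against counting noise, 90.9% of the coding genes with a mean of at least 6 varied beyond it (an index-of-dispersion chi-square test with Benjamini-Hochberg adjustment over all 13261 genes), as did 69.5% of all genes. The same test passed for 17 of the 184, among them Eef2, Rhoa, Dlc1, Eif5a and Furin; nothing is read from that count, since the selection used the same spread.

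Even genes were a smaller share at higher levels. They made up 114 of 1960 coding genes (5.82%) at 6 to 7 log2 CPM, 53 of 928 (5.71%) at 7 to 8, 14 of 353 (3.97%) at 8 to 9 and 3 of 194 (1.55%) at 9 or more. The median SD of all coding genes went the other way, from 0.14 in the lowest of these ranges to 0.20 in the highest, while the counting SD fell from 0.040 to 0.014. Only Eef2, Rhoa and Kif1c were even at 9 or more.

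The 12 genes with the smallest SD were led by Cdkn1a, the inhibitor of cyclin-dependent kinases that p53 induces. Its level was 182, 186, 184 and 185 CPM in replicates 1 to 4, an SD of 0.011 log2 units. Cfl1, the actin-severing protein cofilin, was at 510, 508, 502 and 500 CPM, with an SD of 0.014. No animal stood out for either gene, and both stayed within the limit under each of the 4 ways of scaling the libraries described further on. Pkn2, a protein kinase of the PKC superfamily, was at 84.7, 83.6, 82.6 and 84.1 CPM. Flii, an actin-binding member of the gelsolin family, was at 190, 191, 193 and 188 CPM. Also among the 12, at SDs of 0.019 to 0.021, were the beta-tubulin Tubb4b, Mrfap1, the stress granule protein G3bp1, the glycyl-tRNA synthetase Gars and the proteasome core subunits Psma7 and Psma1. Tubb4b has near-identical tubulin paralogs, as Calm2 has among the calmodulins, and how reads were divided between copies is not given in the sources used here.

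The 10 even genes with the highest CPM, a scale that does not correct for transcript length, had more reads behind them. Eef2, the elongation factor that moves the ribosome along the message, was at 1480, 1550, 1500 and 1458 CPM, highest in replicate 2. Rhoa, the GTPase that drives stress fibres, was at 592, 603, 640 and 608 CPM, highest in replicate 3. Kif1c, a kinesin motor, was at 633, 587, 603 and 603 CPM, with replicate 1 the highest. Dlc1, which switches RhoA-type GTPases off, was at 492, 515, 480 and 490 CPM, and the initiation factor subunit Eif3a was at 495, 463, 485 and 463 CPM. The others were Cfl1, the clathrin assembly protein Picalm, the adducin Add1, which caps actin filaments and recruits spectrin,, the actin monomer-binding Cap1 and Eif5a. The highest and the lowest animal thus differed from gene to gene.

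**Figure D2:**
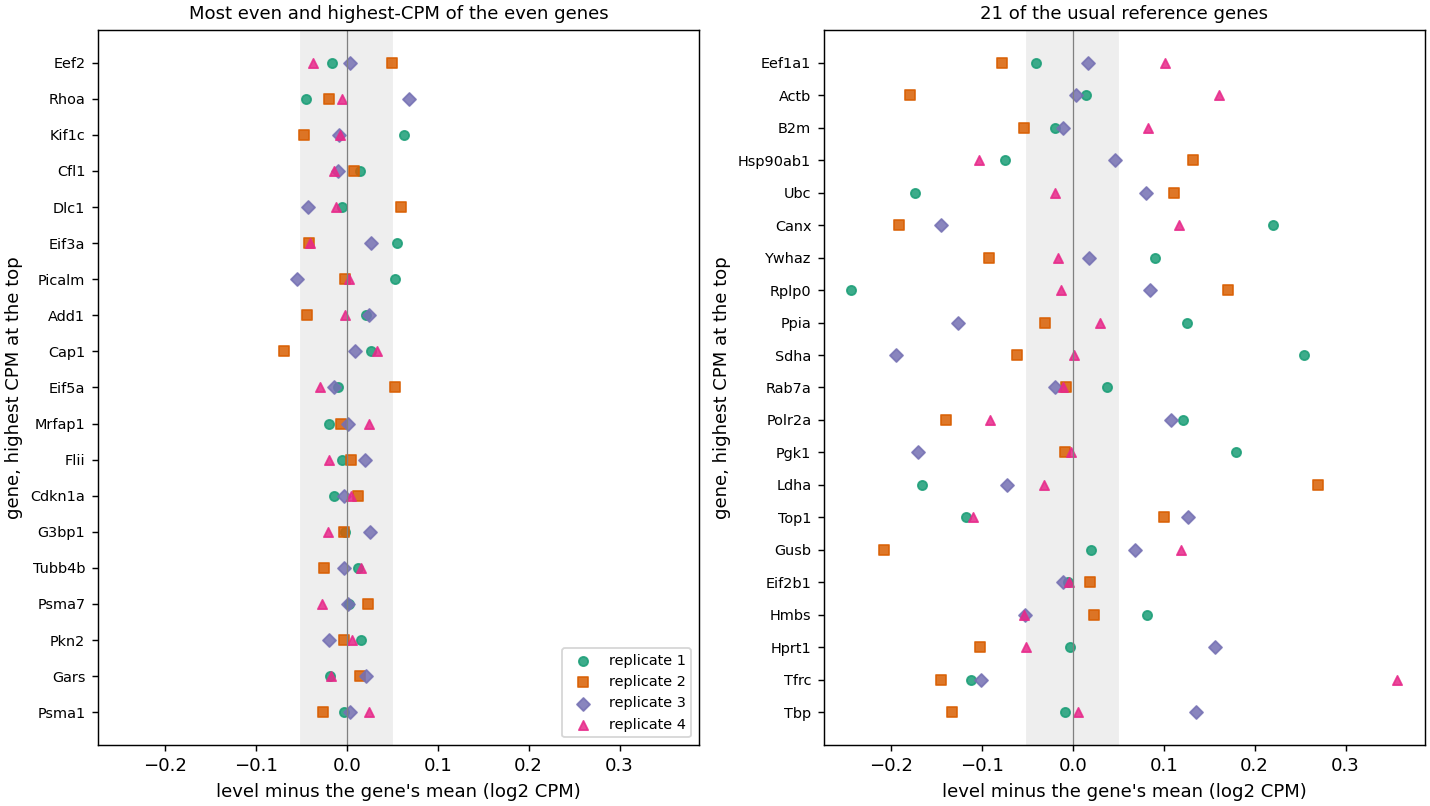
Level in each of 4 rats minus the gene's own mean (x axis, log2 CPM) for genes among the 12 most even and the 10 with the highest CPM (left; Cfl1 is in both) and for 21 usual reference genes (right), with a marker for each replicate and a grey band of 0.05 on either side of the mean. Most marks at the left lie in the band, and those of Actb, Canx, Sdha, Ldha and Tfrc at the right spread well beyond it.

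Over the 184 genes, replicate 1 was the highest animal for 40, replicate 2 for 39, replicate 3 for 69 and replicate 4 for 36. Replicate 2 was the lowest for 63, replicate 4 for 58, replicate 1 for 38 and replicate 3 for 25. Among all coding genes with a mean of at least 6, replicates 3 and 1 were most often the highest, for 31.6% and 31.1%, and replicate 2 most often the lowest, for 39.2%, whereas replicate 4 was the lowest for only 12.9%. Replicate 2 also had the highest share of mitochondrial reads, and the part of that share in these positions was not tested.

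Sorted into 19 gene families by name patterns, 60 of the even genes fell into a family and 124 into none. The families differ in how many members were abundant at all, so each count is given of the coding genes with a mean of at least 6, of which 5.36% were even. The proteasome, which degrades ubiquitin-tagged proteins, had 7 even genes of 27, and its median SD was 0.066 beside 0.15 for all such genes. Psma7 was at 121, 123, 121 and 119 CPM and the lid subunit gene Psmd3 at 131, 134, 137 and 128 CPM. The others were Psma1, Psma6 and Psmd12 and the ATPase subunits Psmc4 and Psmc5. Among ubiquitin enzymes 7 of 58 were even (median SD 0.10), with the deubiquitinases Usp47 at 134, 136, 136 and 132 CPM and Usp19 at 196, 195, 205 and 202 CPM. The COP9 signalosome, which removes the ubiquitin-like Nedd8 from cullins, had 1 even gene of 3, Cops6; Nedd8 itself and the cullin gene Cul1 were even as well, and Nedd8 is named after its values were seen.

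Of 36 genes that the name pattern for translation factors took, 6 were even (median SD 0.085): Eef2, Eif4a1, Eif4a3, Eif4e, Eif5a and Eif3a. Eif4a3, despite its name, is the helicase of the exon junction complex, and the 36 also hold regulators such as the kinase gene Eif2ak2. Eif4a1, the helicase that opens the cap-proximal message, was at 271, 284, 277 and 281 CPM. Aminoacyl-tRNA synthetases, which charge tRNAs, had 3 even genes of 11 and a median SD of 0.063. Gars was at 74.2, 75.9, 76.3 and 74.3 CPM and Vars1 at 74.3, 78.9, 77.4 and 74.0 CPM, and Wars1 was the remaining gene. Eprs, which joins a pair of synthetases in a single protein, lay outside the name pattern and was at 192, 198, 192 and 197 CPM; it was chosen after its values were seen. The translation repressors Pdcd4, Gigyf2 and Paip2, also named after their values were seen, were even too, at SDs of 0.031, 0.033 and 0.049.

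Other families belong to membrane traffic. Of 66 genes for endosomes and lysosomes 9 were even, the highest number in the 19 families (median SD 0.098), and of 30 for the coats of the endoplasmic reticulum and Golgi 3 were (median SD 0.084). Ap2m1, the cargo-binding subunit of the AP-2 adaptor of clathrin-coated vesicles, was at 294, 303, 305 and 303 CPM. Rab7a, the GTPase of late endosomes, was at 305, 296, 293 and 295 CPM, and Arfgap2, which acts in COPI coat release, was at 109, 107, 111 and 110 CPM. The remaining traffic genes were Ap2a1, Ap1m1, Chmp1a, Vps4a, Vps52, Snx17, Rab1b, Arfgap1 and Copz1. None of the 15 genes for the V-ATPase, the pump that acidifies these compartments, was even (median SD 0.12), which is near the background share of 5.36% for so few genes, and 3 of them were within the limit with mitochondrial genes out of the totals.

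In the nucleus, nuclear transport had 3 even genes of 18 (median SD 0.071): the pore protein gene Nup214, at 64.8, 64.8, 65.7 and 63.3 CPM, the exportin gene Xpo6 and Ran, the GTPase that sets the direction of transport, at 136, 145, 141 and 136 CPM. Splicing had 2 of 43 (median SD 0.11), of which Prpf6, a bridge protein of the tri-snRNP, was at 132, 130, 135 and 133 CPM and Snrpb, a core protein of the snRNPs, was at 117, 114, 121 and 122 CPM. Chromatin regulators had only Brd7 of 45 (median SD 0.11), zinc finger proteins only Zc3h11a of 30 (0.14), general transcription only Gtf2i of 16 (0.13), and mRNA decay and helicases only Dhx38 of 29 (0.097). Splicing and these 4 families had 1 or 2 even genes each, close to or below the 5.36% of all coding genes with a mean of at least 6 under the deposited scaling; under the others, given further on, splicing, mRNA decay and chromatin regulators had more.

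Phosphatases had 5 even genes of 34 although their median SD was 0.13: Ptpa, an activator of PP2A, at 170, 170, 167 and 176 CPM, the PP1 catalytic subunits Ppp1ca and Ppp1cc, the calcineurin subunit Ppp3r1 and Ppp6r3. The kinase list had 4 of 31 (median SD 0.14), Csnk1d, Mapk6, Mapk14 and Prkcsh; the last is the beta subunit of glucosidase II and not a kinase, but its name fitted the pattern. Nuclear genes of oxidative phosphorylation had 3 of 56, Uqcrq, Uqcrh and Atp5mg (median SD 0.12), and chaperones had 3 of 34, Cct7, Bag6 and Dnaja2 (0.13). Thus the phosphatase and kinase lists held a few even genes although their median spread was close to the general median.

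**Figure D3:**
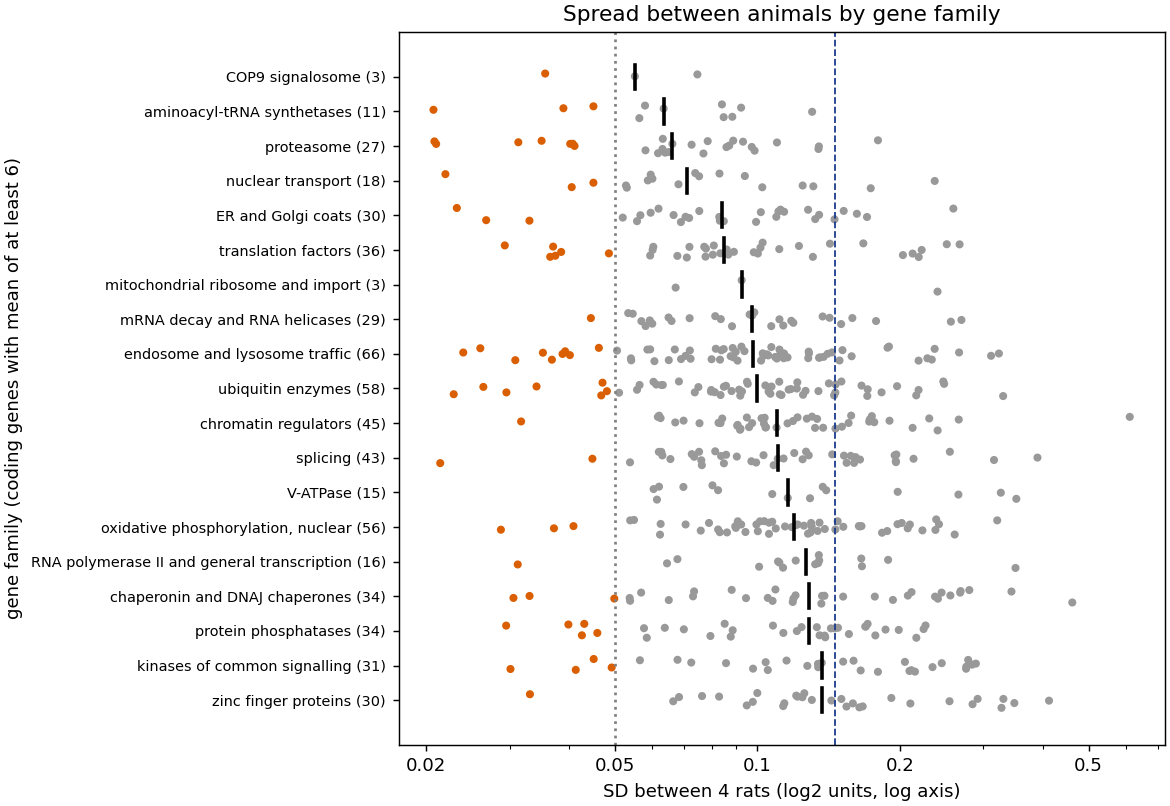
SD between 4 rats (x axis, log2 units on a log axis) of every coding gene with a mean of at least 6 in each gene family (y axis, number of genes in brackets), with even genes in orange, others in grey and the family median as a black bar. The dotted line is the limit of 0.05 and the dashed line the median of 0.15 for all coding genes with a mean of at least 6; the medians of the COP9 signalosome, tRNA synthetases and proteasome lie farthest to its left.

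Further lists were drawn up after the values had been seen, so they only order the genes and nothing is read from their counts. Some of their genes are also counted in a family above, such as Csnk1d among the kinases. For actin filament turnover 13 of 45 genes with a mean of at least 6 were even (median SD 0.085). Among them were the severing and disassembly genes Cfl1, Wdr1, Cap1 and Flii, the capping genes Capzb and Add1, the nucleation genes Arpc1a and Abi1, the GTPase pathway genes Rhoa, Pkn2 and Dlc1, and Lasp1, which binds filaments. Wdr1, the partner of cofilin in disassembly, was at 228, 227, 218 and 218 CPM, and Capzb, a subunit of the barbed-end cap, was at 234, 223, 228 and 229 CPM; the former was even under the deposited scaling only, the latter under all 4. Other genes of the list spread more widely: Actr2 was at 214, 138, 152 and 162 CPM (SD 0.27), highest in replicate 1, and the monomer-binding Tmsb4x was at 951, 1278, 1353 and 1230 CPM (SD 0.22), lowest there. For clathrin and AP-2 the count was 6 of 17 (median SD 0.089), Clta at 200, 206, 207 and 199 CPM among them, whereas the heavy chain gene Cltc was at 686, 535, 556 and 601 CPM (SD 0.16).

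Some even genes belong to systems known for rapid induction. Besides Cdkn1a, the p53 target Plk2, a polo-like kinase, was at 67.0, 66.1, 65.5 and 64.6 CPM. These 2 were the even ones of 8 listed p53 targets with a mean of at least 6. The median SD of the 8 was 0.16, close to the 0.15 of all such coding genes. Mdm2, the ubiquitin ligase for p53, was at 63.8, 88.9, 83.3 and 81.1 CPM (SD 0.21), lowest in replicate 1, and the antiproliferative gene Btg2 was at 62.1, 73.8, 93.5 and 82.9 CPM (SD 0.25). Among the AP-1 genes Jun was even, at 242, 238, 249 and 234 CPM, and Jund was at 261, 315, 296 and 296 CPM (SD 0.11). Junb was at 108, 143, 166 and 189 CPM (SD 0.35) and Fos, below the mean limit, at 13.6, 22.7, 39.8 and 31.9 CPM (SD 0.68). Of the 3 coding genes with a mean of at least 6 in the immediate early list, 1 was even. Replicate 1 was the lowest animal for Mdm2, Btg2, Junb and Fos, and for others of both lists such as Bax and Jund. The lists shared no single order of animals. Ccng1, Egr1 and Ier3 were lowest in replicate 2, and Zmat3 and Rrm2b were highest in replicate 1. These genes come from lists made after the values were seen, and other listed genes spread less: below the mean limit, the p53 target Sesn1 had an SD of 0.052 and the AP-1 gene Fosl2 of 0.061. With mitochondrial genes out of the totals Jun had an SD of 0.053, just over the limit, while Cdkn1a and Plk2 stayed within it under every scaling.

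The oxidative stress factor Nfe2l2 (Nrf2) was at 107, 105, 105 and 111 CPM and its inhibitor Keap1 at 79.0, 80.9, 77.7 and 76.9 CPM, both even, and the target gene Gclc, which limits glutathione synthesis, was at 68.7, 73.7, 78.7 and 103 CPM (SD 0.25). Gclc was the widest of the 5 listed genes of this system with a mean of at least 6 (median SD 0.12); Txnrd1 and Mafk had SDs of 0.12, and Gclm, below the mean limit, of 0.088. Among clock genes the repressor gene Nr1d2 was at 132, 132, 128 and 127 CPM and the kinase gene Csnk1d at 178, 186, 185 and 183 CPM. The Nr1d2 paralog Nr1d1 was at 138, 99.1, 88.7 and 109 CPM (SD 0.27), and Per1, another repressor of the clock, was at 114, 88.3, 80.9 and 94.2 CPM (SD 0.21). Nr1d2 and Csnk1d were the 2 even genes of 7 listed clock genes with a mean of at least 6, whose median SD was 0.17, and the clock genes shared no single order of animals: Nr1d1 and Per1 were lowest in replicate 3, whereas Per3, below the mean limit, was highest there, at 49.8, 64.7, 73.7 and 47.9 CPM. Both even clock genes lay outside the limit with mitochondrial genes out of the totals, where Nr1d2 had an SD of 0.055 and Csnk1d of 0.064, and Keap1 was even under the deposited scaling only. The chemokine gene Cxcl16, at 141, 132, 141 and 142 CPM, and Tnfaip2, a gene induced by tumour necrosis factor, at 278, 291, 290 and 275 CPM, were even too, the former under every scaling and the latter under 2 of 4; both were chosen after their values were seen.

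Reference genes in common use were listed from general practice and not by their spread in these animals, so that spread was tested. Of 47 listed, 43 had a value; Gapdh was not analysed here. Their median SD was 0.11 log2 units, beside 0.15 for coding genes with a mean of at least 6 and 0.18 for all genes. A mean of at least 6 was reached by 32, of which 27 also met the limits on type and name. Of these 27, Rab7a alone (3.70%) met the whole rule for even genes, beside 5.36% of all such coding genes. The shares are near each other, so nothing is read from that count. Reads varied beyond counting noise for 36 of 43 (83.7%) and for 31 of the 32 with a mean of at least 6 (26 of the 27 within the limits on type and name), beside 69.5% of all genes and 90.9% of the coding genes at that level.

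Actb, cytoplasmic beta-actin, was at 2356, 2059, 2338 and 2606 CPM, lowest in replicate 2 and highest in replicate 4. Its SD was 0.14, its highest-to-lowest ratio 1.27, and its reads varied beyond counting noise (adjusted p = 9.48e-217, chi-square index of dispersion); so did those of all 194 coding genes with a mean of 9 or more, where counting noise is small. Of the coding genes with a mean of at least 6, 47.2% had a smaller SD than Actb. Hprt1, a purine salvage enzyme, was far less abundant, at 20.5, 19.1, 22.8 and 19.8 CPM. Its SD of 0.11 was not distinguishable from counting noise at that depth (adjusted p = 0.14, same test), which does not show that its level was even. The same held for Tbp, the TATA-binding protein, at 11.5, 10.5, 12.7 and 11.6 CPM (adjusted p = 0.41, same test).

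Within the reference list 4 of 43 genes had an SD of at most 0.05, beside 460 of all 13261 genes used, at any level. In the reference list 6 did under each of the other 3 scalings described further on. Without replicates 1, 2, 3 and 4 in turn the counts were 9, 10, 4 and 7. Eif2b1, a subunit of the exchange factor of translation initiation, was at 27.7, 28.2, 27.7 and 27.8 CPM (SD 0.013). Snrpd3, a core splicing protein, was at 47.3, 50.8, 48.2 and 48.2 CPM (SD 0.045). Both genes lay below the mean limit. Counting alone would give them larger SDs, of 0.071 and 0.053, so at that depth their small SDs do not show that their levels were even. Rab7a was described above. Ubb, a polyubiquitin gene, was at 904, 871, 893 and 927 CPM (SD 0.038); it is typed as a pseudogene in the deposited table and so was outside the rule. Among the abundant ones, B2m, the light chain of MHC class I, was at 1543, 1506, 1552 and 1656 CPM (SD 0.058), and Eef1a1 was at 2636, 2568, 2741 and 2907 CPM (SD 0.078), both highest in replicate 4. Ywhaz had an SD of 0.076 and Ppia of 0.11, and the widest spreads among those named here were those of Sdha (0.19), Ldha (0.19), Canx (0.20), the transferrin receptor Tfrc (0.24) and the ribosomal stalk gene Rplp2 (0.47). Rplp2 was at 30.4, 58.6, 49.2 and 31.8 CPM, with replicates 2 and 3 above the other two. Eef1a1, Ppia and several ribosomal protein genes have many processed copies in the rat genome, and their values are uncertain to that extent.

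Evenness also depends on how libraries are put on a common scale. The deposited values divide by the total of all listed genes. Of the 184 genes, 79 (42.9%) stayed at an SD of at most 0.05 under median-of-ratios factors, upper-quartile factors and totals without mitochondrial genes alike; 49 did so under 3 of the 4 scalings, 24 under 2 and 32 under the deposited one only. With mitochondrial genes out of the totals 212 genes met the rule, and 96 of them were among the 184 (52.2% of the deposited set and 45.3% of the other). The largest shift of a library behind this was 0.053 log2 units, in replicate 2 when mitochondrial genes were left out, which is as wide as the SD limit itself.

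The families were not affected alike. Endosome and lysosome traffic kept 7 of its 9 genes under every scaling, and both splicing genes stayed, Prpf6 and Snrpb. The proteasome kept only Psma1 of 7, translation factors only Eif4e of 6 and oxidative phosphorylation 0 of 3. The counts of even genes under the other scalings were 5, 4 and 4 for the proteasome and 11, 12 and 11 for endosomes and lysosomes (in the order median-of-ratios, upper quartile, without mitochondrial genes). For actin filament turnover they were 13, 10 and 10, for translation factors 3, 3 and 7, for tRNA synthetases 4, 4 and 1 and for phosphatases 3, 3 and 4. Splicing had 4 even genes under each of them, nuclear transport 4, 4 and 5, and oxidative phosphorylation 0, 2 and 2. Chromatin regulators had 3, 2 and 4, mRNA decay and helicases 2, 3 and 4, coats of the endoplasmic reticulum and Golgi 4, 6 and 4, and clathrin and AP-2 5, 5 and 4. Of all 3435 coding genes with a mean of at least 6, 211, 212 and 212 were even under these scalings. The numbers of even genes in the families thus moved by a few in either direction with the scaling. The genes whose largest SD over the 4 scalings was smallest were Psma1 (0.024), Arfgap2 (0.025), Tubb4b (0.025), the inorganic pyrophosphatase Ppa1 (0.028) and Ctr9, a subunit of the elongation complex PAF (0.029). Eef2 and Eif5a were even under the deposited scaling only.

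Evenness was next read in an animal that had not been used to choose the genes. The same rule was applied to 3 animals, and the deviation of the remaining animal from their mean was taken for the chosen genes. For replicate 1, 421 genes were chosen, and their median absolute deviation in that animal was 0.11 log2 units, beside 0.16 for all coding genes with a mean of at least 6 in the other three. For replicate 2 the values were 428 genes, 0.11 and 0.14, for replicate 3 they were 379 genes, 0.095 and 0.13, and for replicate 4 they were 276 genes, 0.070 and 0.097. Counting alone would give about 0.03 in each. Chosen genes thus deviated less than the wider group in each of the 4 animals. The limit of 0.05 by which they had been chosen is on an SD, a different measure, so these deviations cannot be set against it. Within 0.1 log2 units of the mean of the other three lay 45.4%, 45.3%, 51.2% and 62.3% of the chosen genes for replicates 1 to 4, beside 33.6%, 36.6%, 40.1% and 51.4% of the wider group. With their sign kept, the chosen genes deviated by a median of -0.02 in replicate 1, -0.09 in replicate 2, 0.05 in replicate 3 and -0.00 in replicate 4, beside -0.00, -0.06, 0.03 and 0.02 for the wider group.

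**Figure D4:**
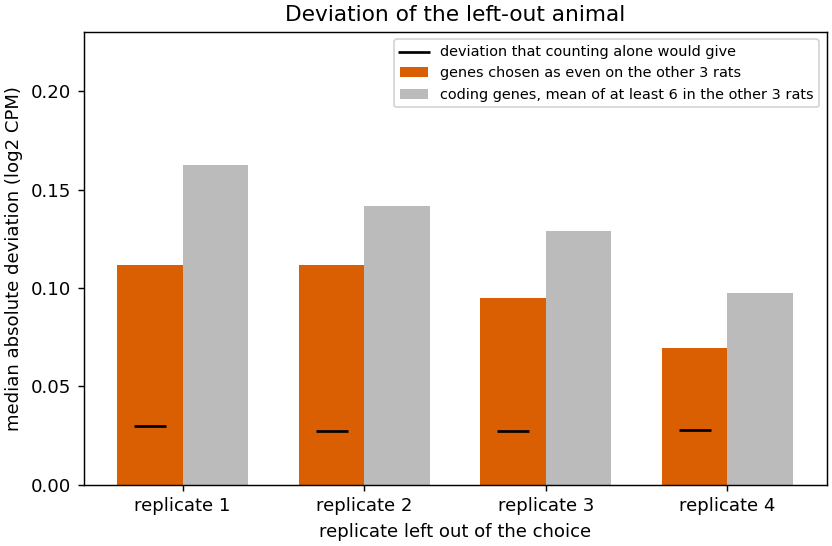
Median absolute deviation (y axis, log2 CPM) of a left-out rat (x axis) from the mean of the other 3, for genes chosen as even on those 3 (orange) and for all coding genes with a mean of at least 6 in them (grey); the black marks show what counting alone would give for the chosen genes. The orange bars run from 0.070 to 0.11 and the grey from 0.097 to 0.16, and each orange bar is below its grey neighbour.

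Promoter sequence was not used by the rule. RefSeq promoter windows on the GRCr8 build, of 250 bases before and 50 after the first listed start of a gene, were matched for 152 of the 184 even genes (82.6%) and 2608 of the 3251 other coding genes with a mean of at least 6. The GC content was alike, with a median of 63% in both sets. The ratio of observed to expected CpG had a median of 0.87 in the even genes, 0.80 in the others and 0.42 in all 27457 RefSeq windows, and it exceeded 0.6 in 88.2%, 77.0% and 36.8% of them. These figures are descriptions, and how abundant genes with and without steady levels differ in them was not tested.

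The following sequences are the 250 bases upstream of the start, 5′ to 3′ on the strand of the gene, for the genes with the smallest SD and for genes that hold the motifs described after them. Capitals mark matches, on either strand, to 7 short motifs: the GC box GGGCGG, the NF-Y box CCAAT, the TBP box TATAAA, the ETS core CCGGAAG, the NRF1 core GCATGCGC, the YY1 core AAGATGG and the ZBTB33 core TCTCGCGA. Matches that overlap or adjoin run together, and the ZBTB33 core read on both strands gives overlapping matches. Positions are on GRCr8, with chr20:7150682-7150931 (plus strand) for Cdkn1a, chr1:212226874-212227123 (plus) for Cfl1, chr3:189084215-189084464 (plus) for Prpf6, chr6:78514097-78514346 (plus) for Psma6, chr4:122064186-122064435 (minus) for Rab7a and chr19:68154953-68155202 (minus) for Chmp1a.
Cdkn1a: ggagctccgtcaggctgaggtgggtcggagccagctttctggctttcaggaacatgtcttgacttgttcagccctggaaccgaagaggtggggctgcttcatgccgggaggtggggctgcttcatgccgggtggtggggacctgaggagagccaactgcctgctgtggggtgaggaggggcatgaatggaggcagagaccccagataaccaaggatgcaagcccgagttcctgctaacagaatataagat
Cfl1: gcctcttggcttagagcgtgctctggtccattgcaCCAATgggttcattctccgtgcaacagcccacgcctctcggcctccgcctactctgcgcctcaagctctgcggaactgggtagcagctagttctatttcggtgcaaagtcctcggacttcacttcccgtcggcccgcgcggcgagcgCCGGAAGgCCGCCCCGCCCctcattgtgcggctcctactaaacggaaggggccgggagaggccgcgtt
Prpf6: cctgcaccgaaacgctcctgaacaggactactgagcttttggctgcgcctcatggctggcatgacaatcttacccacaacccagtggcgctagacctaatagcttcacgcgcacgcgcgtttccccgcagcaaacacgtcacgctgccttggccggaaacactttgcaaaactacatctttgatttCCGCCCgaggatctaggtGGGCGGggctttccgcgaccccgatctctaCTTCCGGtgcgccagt
Psma6: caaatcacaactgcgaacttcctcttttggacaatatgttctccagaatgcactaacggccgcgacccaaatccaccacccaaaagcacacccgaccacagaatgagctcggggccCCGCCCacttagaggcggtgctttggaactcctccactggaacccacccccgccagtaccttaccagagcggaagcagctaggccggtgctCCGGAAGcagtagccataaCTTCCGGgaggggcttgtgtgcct
Rab7a: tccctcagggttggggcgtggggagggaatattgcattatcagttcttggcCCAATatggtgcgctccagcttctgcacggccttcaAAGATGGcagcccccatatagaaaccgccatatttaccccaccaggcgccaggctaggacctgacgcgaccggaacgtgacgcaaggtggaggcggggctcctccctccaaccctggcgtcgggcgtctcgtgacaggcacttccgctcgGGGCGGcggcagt
Chmp1a: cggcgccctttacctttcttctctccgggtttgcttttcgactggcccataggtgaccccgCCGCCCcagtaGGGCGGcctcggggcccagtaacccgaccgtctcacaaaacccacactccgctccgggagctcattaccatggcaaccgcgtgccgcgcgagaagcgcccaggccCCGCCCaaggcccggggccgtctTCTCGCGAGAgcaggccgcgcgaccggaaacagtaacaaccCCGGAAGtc
The 250 bases upstream of Cdkn1a held none of the 7 motifs and 6 CpG dinucleotides, against 24 in Cfl1, 21 in Prpf6, 13 in Psma6, 19 in Rab7a and 28 in Chmp1a. With overlapping matches counted apart, Cfl1 had 2 GC boxes (in a single overlapping run), an NF-Y box and an ETS core, Prpf6 had 2 GC boxes and an ETS core, and Psma6 had 2 ETS cores and a GC box. Rab7a had a GC box, an NF-Y box and a YY1 core, and Chmp1a had 3 GC boxes, an ETS core and the ZBTB33 core on both strands. With the 50 bases after the start included, the Cdkn1a window held 7 CpG dinucleotides and a YY1 core, and that of Cfl1 held 28.

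Over the whole 300-base windows, the GC box was in 75.0% of the even genes, 68.2% of the other coding genes with a mean of at least 6 and 34.9% of all RefSeq windows. The ETS core was in 27.6% (42 of 152), 15.3% and 9.22%. The YY1 core was in 13.2%, 8.86% and 7.30%, and the NF-Y box in 38.8%, 37.7% and 37.7%. The TBP box was in 4.61%, 7.06% and 14.3%. The NRF1 core was in 6.58%, 5.18% and 2.66% and the ZBTB33 core in 3.29%, 2.30% and 0.943%. A match of these letters is not a bound site, and a window without a match says nothing of the factor.

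The share with an ETS core varied with level. At 6 to 7 log2 CPM it was 33.7% of even genes (32 of 95) and 18.1% of the others, and at 7 or more it was 17.5% (10 of 57) and 11.5%. Among the genes even under every scaling it was 29.9% (20 of 67), and among the rest of the even genes 25.9% (22 of 85). The NF-Y box differed more in that split, at 46.3% (31 of 67) and 32.9% (28 of 85), and the YY1 core was at 16.4% and 10.6%. The GC box was in 75.8% of even genes at 6 to 7 log2 CPM and 73.7% at 7 or more, beside 68.0% and 68.4% of the others.

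**Figure D5:**
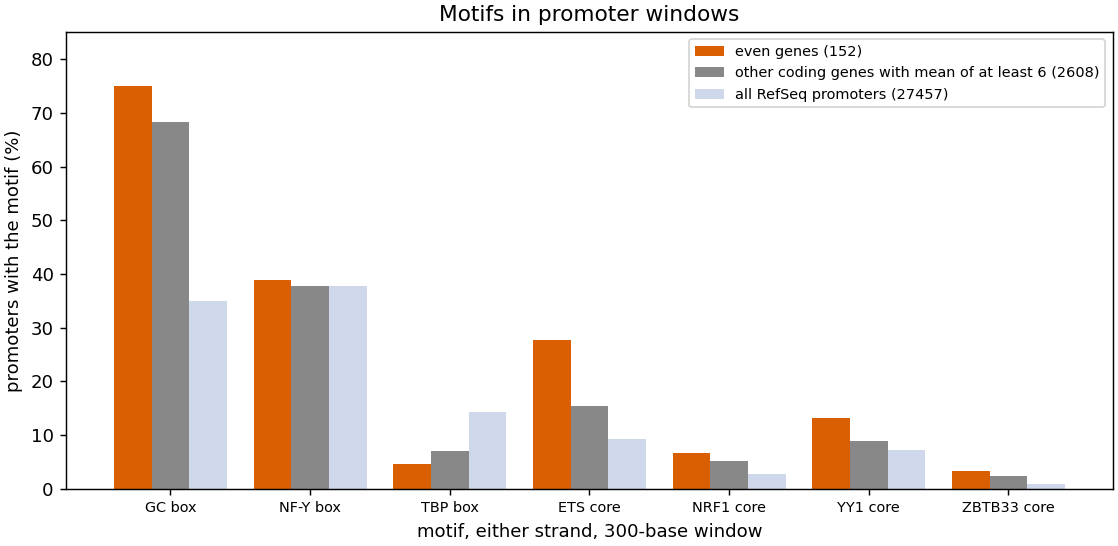
Share of 300-base promoter windows (y axis, %) that hold each motif on either strand (x axis), for 152 even genes (orange), 2608 other coding genes with a mean of at least 6 (grey) and all 27457 RefSeq windows (light blue). The ETS core is in 27.6% of the even genes and 15.3% of the others, and the NF-Y box is in 38.8%, 37.7% and 37.7% of the sets.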

How the data were processed

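Polyadenylated RNA of 4 glomerular samples was measured. The deposited table holds log2 values for 13265 rows, 1 column per sample; the submitters' processing notes name HISAT2, featureCounts, Subread, limma and Rnor_6.0 without role or order, and the use of strand in counting is not given in the sources used here. Read from the values, each deposited log2 value is that of a whole number of reads plus 0.5 times a constant of the sample, for 100% of the 13261 genes used, within a tolerance of 0.1 reads; 4 rows with displaced columns were left out. From these, reads, CPM, means and SDs (n - 1) were computed (Python 3.11.15, numpy 2.4.6, scipy 1.17.1, pandas 2.3.3). Each gene's recovered reads were set against Poisson sampling with library totals as exposure by an index of dispersion referred to chi-square with 3 degrees of freedom, adjusted by Benjamini-Hochberg over all genes with a threshold of 0.05; the script was tested on simulated data. Libraries held 13566962, 16207027, 15348629 and 15244063 reads. Replicate numbers follow accession order and pair nothing.

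Members and lists were chosen with earlier results of these data known. Genes were named by rule: the reference genes, the 12 members with the smallest SD, the 10 with the highest mean, the highest and the most even member of each family and 4 genes on each side of the SD limit; every other gene was chosen after its values were seen. Motifs were shortened to their cores after the files were seen and before promoter matches were counted. The actin, clathrin, p53, immediate early, Nrf2 and clock lists were made after the values were seen. Promoter windows come from RefSeq (GRCr8), matched by symbol or unique synonym. A symbol on several rows was left out, and some genes that the naming rule selects are not reported here.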

Additional observations from a re-analysis of the deposited data

Results flagged for a closer look

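Among 210 results examined for an animal far from the other three, by the gap to its nearest neighbour as a share of the whole range, 9 stood apart; chance sets apart about 1 in 20. Synj1, a phosphoinositide phosphatase of clathrin uncoating, is the only even gene among them: its share was 0.83, with replicate 2 at 6.37 log2 CPM below the others at 6.46 to 6.47, a range that the SD limit keeps small. Of the reference genes, Vps29 (share 0.95) was highest in replicate 1, at 5.94 against 5.63 to 5.65 log2 CPM, and Tfrc (0.91) was highest in replicate 4, at 4.45 against 3.95 to 3.99. Replicate 1 was apart for Myc (0.90, lowest, 2.75 against 3.42 to 3.49 log2 CPM), Bhlhe41 (0.94, highest, 3.43 against 1.96 to 2.05), Limk2 (0.84, lowest) and Cltb (0.84, highest). Ssh1 (0.83) was highest in replicate 3, and Cdc42 (0.86) was lowest in replicate 2, at 7.52 against 7.70 to 7.73 log2 CPM.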

How the results depend on the processing

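The number of even genes follows its limits: 320, 70 and 446 with a mean limit of 5, 7 and none, and 111 and 297 with an SD limit of 0.04 and 0.06. With an SD limit of 0.06, 7 reference genes lay within it. The share of genes varying beyond counting noise was 84.3% at a mean of at least 5 and 96.1% at 7 or more. The ETS core was in 17.5% of even genes at a mean limit of 7, and the GC box in 67.2% with no limit. Leaving out a replicate gave 276 to 428 even genes, 4 to 10 reference genes within the SD limit, 55.2% to 65.4% of all genes beyond counting noise, 1.34% to 4.11% of promoters with the ZBTB33 core, and median deviations of 0.0696 to 0.112 for the left-out animal, the lowest for replicate 4. Without replicate 4 the number of even genes was 276, and without replicates 1, 2 and 3 it was 421, 428 and 379. Of the summary values 136 stayed within their limits and 22 moved, and of the single-gene SDs 1452 stayed and 220 moved. Scaling changed which genes were even more than how many: 211 under median-of-ratios factors (133 shared with the 184), 212 under upper-quartile factors (130 shared) and 190 on log2(CPM + 1), which held all 184. No paired analysis was possible because the samples form a single group. Depth sets the floor: at 6 to 7 log2 CPM counting alone gives a median SD of 0.040, close to the limit.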

Other observations

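The 7 genes that met the limits on type, mean and SD but were left out by name were the ribosomal protein genes Rpl21, Rpl27 and Rpl36 and the transporter genes Slc30a4, Slc39a7, Slc4a2 and Slc66a2. Rpl27 was at 163, 172, 167 and 163 CPM, and the anion exchanger gene Slc4a2 at 135, 132, 140 and 137 CPM. The lipid genes Sptlc2, which begins sphingolipid synthesis, at 110, 110, 113 and 109 CPM, and Agpat1, an acyltransferase of phospholipid synthesis, at 101, 99.6, 98.5 and 103 CPM, were even under all 4 scalings, as were Cert1, which carries ceramide between membranes, at 138, 132, 140 and 133 CPM, and Scap, the escort of sterol regulatory factors, at 124, 120, 129 and 127 CPM. These 4 were chosen after their values were seen.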
